A study of Mus musculus with 7 samples.

Results

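The report describes 10 genes that act in the transition of endothelial or epithelial cells to mesenchyme or in the mesenchyme of the cardiac cushions. They are *Snai1*, *Snai2*, *Twist1*, *Twist2*, *Zeb1*, *Zeb2*, *Sox9*, *Msx1*, *Msx2* and *Has2*. They were chosen by name, and all 10 were found among the 14732 genes of the deposited expression table. RNA-seq had been carried out on poly(A) RNA of outflow tracts, the vessel that carries blood out of the embryonic heart, dissected from mouse embryos at embryonic day (E) 11.5. The control group has 3 pools (replicates 3, 4 and 5) and the *Gata6STOP/+* group has 4 (replicates 1, 3, 4 and 5), whereas the sources used here state 3 pools per genotype, each of 4 pairs of outflow tracts. In *Gata6STOP/+* embryos, 1 copy of the transcription factor gene *Gata6* carries a premature stop codon made with CRISPR-Cas9 in a whole-body line, so the cells of the embryo are heterozygous throughout. The line descends from a single chosen founder crossed back to C57BL/6, and the control embryos are labelled WT. Nothing in the sources gives the sex or litter of the pooled embryos. A difference in litter between the groups cannot be told apart from genotype, and the sex makeup of the pools was not checked from the expression values. The *P*-values set the difference between the genotypes against the spread between these pools.

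Valves and septa of the outflow tract arise from the cardiac cushions, swellings of hyaluronan-rich matrix between endocardium and myocardium. Under TGFβ, BMP and Notch signals, endocardial cells lose their junctions, take on a mesenchymal shape and invade this matrix, and neural crest cells populate the outflow cushions as well. Snail, Zeb and Twist proteins are DNA-binding factors that act in this switch, in part by repressing junction genes through E-box sequences, while Sox9 and Msx proteins mark and maintain the cushion mesenchyme and Has2 makes the hyaluronan that it moves through.

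Promoter sequences from RefSeq (GRCm38.p6, 250 bases before to 50 bases after the start) were at hand for 6 of the 10 genes, namely *Snai1*, *Twist1*, *Twist2*, *Zeb2*, *Msx1* and *Msx2*, with 9 promoters in all because *Zeb2* has several. The windows below are shown because Snail and Zeb proteins recognise the E2 box, CACCTG, which was searched on both strands and is given in capitals.
*Msx1*, chr5:37824781-37824804, minus strand: accgatgccCACCTGacttagcta
*Snai1*, chr2:167538060-167538083, plus strand: gcccaggcgCACCTGctccggtct
The first base of the box lies 210 bases before the start in *Msx1* and 126 bases before it in *Snai1*. An E2 box was found in 2 of the 9 promoters and in 20.2% of all 32851 promoters of the same length. A GATA sequence, which is AGATAA or, in its other forms, TGATAA or else AGATAG or also TGATAG, searched on both strands, was found in 0 of the 9 and in 29.8% of all promoters. These matches describe letters in a window and say nothing of binding.

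The values are CPM, read counts set to a common library size, which the authors had scaled further by TMM so that libraries of unequal composition can be compared. The listed genes took between 17783655 and 29035529 reads in a control pool and between 24736761 and 34467710 in a *Gata6STOP/+* pool, which gave each of the 10 genes from 186 reads (*Twist2*) to 3694 reads (*Twist1*) in a pool. *Gata6* itself (chromosome 18, ENSMUSG00000005836) had 315, 257 and 286 CPM in the control pools (replicates 3, 4 and 5, in this order throughout) against 268, 203, 219 and 217 CPM in the *Gata6STOP/+* pools (replicates 1, 3, 4 and 5). The groups overlap through *Gata6STOP/+* replicate 1, and the *Gata6STOP/+* mean was 79.2% of the control mean (log2 fold change −0.34, SE 0.099, limma adjusted *P* = 0.389, exact two-sided permutation *P* = 0.114, where 0.0571 is the smallest that 35 arrangements allow). Of the other settings tried, *Gata6* was called in 1, the edgeR likelihood ratio fit that blocked on replicate number (log2 fold change −0.42, adjusted *P* = 0.0164). In limma with each pool left out in turn, its log2 fold change ran from −0.42 (without *Gata6STOP/+* replicate 1) to −0.27 (without control replicate 3). A difference of the size seen for *Gata6* can thus go uncalled by limma in these pools, which also limits what an uncalled gene shows. Limma on log2(CPM + 0.5), adjusted over all genes by the Benjamini-Hochberg method with a threshold of 0.05, called 0 of 14732 genes (0%), and 1187 genes, or 8.06%, had an unadjusted *P* under 0.05. On the recovered reads, edgeR's quasi-likelihood test called 0 genes, its likelihood ratio test 105 (0.713%) and DESeq2 88 (0.597%).

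The tissue was checked against marker genes of cells that an outflow tract can hold. Summed over each list, cardiomyocyte markers (10 of 10 listed) ranged from 23560 to 26150 CPM in control and from 18880 to 27220 CPM in *Gata6STOP/+* pools, smooth muscle markers (8 of 8) from 2617 to 3076 and from 2725 to 3581 CPM, and endocardial and endothelial markers (10 of 10) from 852 to 1187 and from 933 to 1134 CPM. Of 9 pharyngeal and foregut epithelial markers, *Krt8* and *Krt18* were listed. Summed neural crest and glial markers (7 of 9 listed) were at 159, 228 and 152 CPM in control and at 156, 125, 138 and 137 CPM in *Gata6STOP/+* pools, which overlap through *Gata6STOP/+* replicate 1, and 5 of the 7 had a fold change below 0. Red cell markers (8 of 8) summed to between 2365 and 5680 CPM in control and between 2739 and 7154 CPM in *Gata6STOP/+* pools, with all 8 fold changes above 0 (median 0.42 on the log2 scale). The sums of all 10 marker lists overlapped between the genotypes, no marker was called by limma, and no listed marker was at 0 in a pool. Singly, the pools of 1 of 10 cardiomyocyte, 1 of 8 smooth muscle and 1 of 7 neural crest markers did not overlap, with *Gata6STOP/+* below. Of 7 listed neuron markers, 1 did not overlap, with *Gata6STOP/+* above. Among all genes these shares were 4.16% below and 4.31% above. The part of these cells in the values of the 10 genes was not tested. Control replicate 4 stood apart from the other control pools, with 66.5 CPM of *Bmp10*, a ligand of trabecular myocardium, against 6.14 and 11.3 CPM, and with the highest summed endothelial and neural crest markers of the 7 pools.

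The question put to the 10 genes was whether their mRNA differed between *Gata6STOP/+* and control outflow tracts. None of them passed the test in either direction. Limma called 0 of 10, none had an unadjusted *P* under 0.05 against 8.06% of all genes, and for all 10 the pools of the genotypes overlapped, whereas the pools of 8.47% of all genes did not (4.31% with *Gata6STOP/+* above and 4.16% below). The fold change was above 0 for 5 genes and below 0 for 5, and below 0 for 50.2% of all genes. The median log2 fold change over the 10 was 0.0043, beside −0.00073 over all genes. In the other settings tried that used all 7 pools, 0 of the 10 were called, where the share of all genes called reached 0.00679% with a smaller constant added before the logarithm and, with the replicate number as a block, 0.095% (limma), 0.0882% (edgeR quasi-likelihood) and 0.801% (edgeR likelihood ratio). In bulk tissue, fewer cells of a type and less RNA per cell cannot be told apart.

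**Figure D1:**
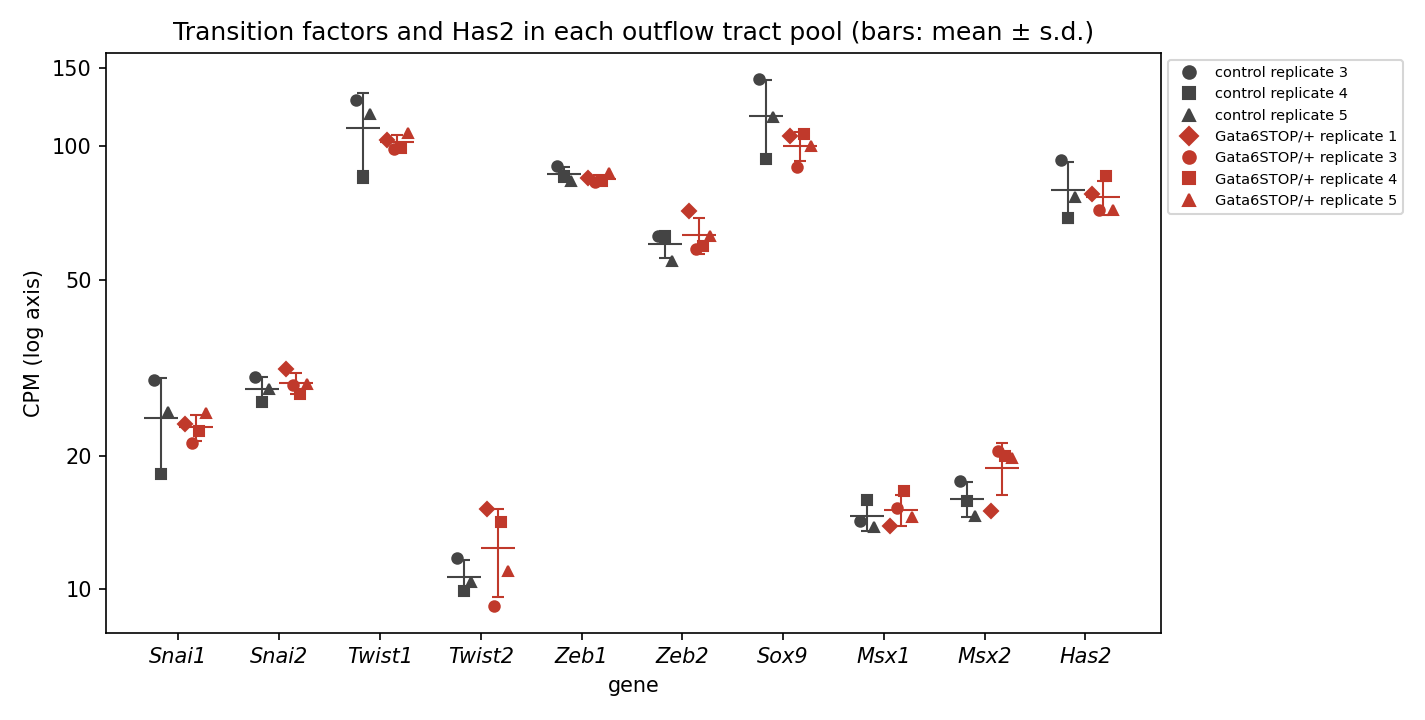
CPM of each of the 10 genes in the 7 pools. Points are pools and lines are group means with SD. Control and *Gata6STOP/+* points overlap for every gene, and the control points of *Snai1*, *Twist1* and *Sox9* lie farther apart than their *Gata6STOP/+* points.

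*Snai1* (ENSMUSG00000042821, chromosome 2, 167538195 to 167542814, plus strand), a zinc-finger repressor of junction genes, had 29.6, 18.2 and 25.1 CPM in control pools and 23.6, 21.4, 22.7 and 25.0 CPM in *Gata6STOP/+* pools. The control pools hold both the highest and the lowest value, and the *Gata6STOP/+* pools lie between them. The log2 fold change was −0.04 (95% interval −0.35 to 0.26, limma adjusted *P* = 0.961), so the interval of the difference runs from −21.3% to 20.1% of the control level. *Snai2* (Slug, ENSMUSG00000022676, chromosome 16, 14705852 to 14709385, plus strand), its paralog, prominent in neural crest and cushion mesenchyme, was at 30.2, 26.5 and 28.3 CPM in control and at 31.4, 28.9, 27.6 and 29.1 CPM in *Gata6STOP/+* pools. These pools were close to one another, with a highest value in *Gata6STOP/+* replicate 1 and a lowest in control replicate 4. Its log2 fold change was 0.05 (−0.12 to 0.21, limma adjusted *P* = 0.904), an interval from −7.98% to 16.1%. The third gene of the family, *Snai3*, was at 2.02 ± 0.722 CPM in control (SD, n = 3) and at a mean of 1.66 CPM in *Gata6STOP/+* pools, and was not called.

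*Twist1* (ENSMUSG00000035799, chromosome 12, 33957671 to 33959829, plus strand), a basic helix-loop-helix factor that keeps cushion and neural crest mesenchyme proliferating, was at 127, 85.0 and 118 CPM in control pools and at 103, 98.9, 99.3 and 107 CPM in *Gata6STOP/+* pools. As with *Snai1*, control replicate 3 was highest, control replicate 4 lowest, and the *Gata6STOP/+* pools were tightly grouped between them. The log2 fold change was −0.09 (−0.34 to 0.17, limma adjusted *P* = 0.888), an interval from −21.0% to 12.3%. *Twist2* (ENSMUSG00000007805, chromosome 1, 91801461 to 91848028, plus strand), a paralog expressed in dermal and other mesenchyme, was at 11.8, 9.90 and 10.4 CPM in control pools and at 15.2, 9.17, 14.2 and 11.02 CPM in *Gata6STOP/+* pools. Here the *Gata6STOP/+* pools were the scattered group: replicates 1 and 4 lay above all control pools and replicate 3 below them. The log2 fold change was 0.18 (−0.17 to 0.53, limma adjusted *P* = 0.811), and the interval, from −11.2% to 44.8%, is the widest of the 10 on the percentage scale. Twist proteins pair with E proteins and are held back by Id proteins. The E protein genes *Tcf3*, *Tcf4* and *Tcf12* had log2 fold changes from −0.07 to −0.01, and none was called.

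*Zeb1* (ENSMUSG00000024238, chromosome 18, 5591860 to 5775467, plus strand), a zinc-finger and homeodomain repressor, was at 90.4, 85.5 and 83.7 CPM in control pools and at 84.8, 83.3, 83.4 and 86.9 CPM in *Gata6STOP/+* pools. It was the steadiest of the 10 genes, with a coefficient of variation of 4.01% in control and 2.01% in *Gata6STOP/+* pools. The log2 fold change was −0.03 (−0.15 to 0.09, limma adjusted *P* = 0.909), and the interval from −10.1% to 6.36% is the narrowest. *Zeb2* (ENSMUSG00000026872, chromosome 2, 44983632 to 45117395, minus strand), which acts in neural crest formation and migration, was at 62.7, 62.5 and 55.2 CPM in control pools and at 71.6, 58.8, 59.5 and 62.6 CPM in *Gata6STOP/+* pools. *Gata6STOP/+* replicate 1 was above every other pool, and control replicate 5 below. The log2 fold change was 0.07 (−0.11 to 0.25, limma adjusted *P* = 0.870). The corepressor genes *Ctbp1* and *Ctbp2*, through which Zeb proteins act, had log2 fold changes of −0.08 and −0.03 and were not called.

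*Sox9* (ENSMUSG00000000567, chromosome 11, 112782224 to 112787760, plus strand), an HMG-box factor needed for the expansion of cushion mesenchyme and for cartilage, was at 142, 93.7 and 117 CPM in control pools and at 105, 89.7, 106 and 100 CPM in *Gata6STOP/+* pools. Control replicates 3 and 5 lay above every *Gata6STOP/+* pool, while control replicate 4 lay within their range. The *Gata6STOP/+* mean was 85.6% of the control mean, with a log2 fold change of −0.21 (−0.47 to 0.06, limma adjusted *P* = 0.710) and an interval from −27.7% to 3.89%. Its partners in cartilage, *Sox5* and *Sox6*, and its relative *Sox8* had log2 fold changes from −0.22 to 0.07, and none was called.

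*Msx1* (ENSMUSG00000048450, chromosome 5, 37820485 to 37824583, minus strand), a homeobox repressor and BMP target in the cushions, was at 14.2, 15.9 and 13.8 CPM in control pools and at 13.9, 15.3, 16.7 and 14.6 CPM in *Gata6STOP/+* pools. The pools of the genotypes were interleaved. Its log2 fold change was 0.04 (−0.17 to 0.25, limma adjusted *P* = 0.939). *Msx2* (ENSMUSG00000021469, chromosome 13, 53466884 to 53473074, minus strand), its paralog, was at 17.6, 15.8 and 14.7 CPM in control pools and at 15.1, 20.5, 19.97 and 19.8 CPM in *Gata6STOP/+* pools. *Gata6STOP/+* replicates 3, 4 and 5 were above all control pools, and replicate 1 was within the control range. Of the 10 genes it had the smallest unadjusted limma *P*, 0.087 (adjusted *P* = 0.681), with a log2 fold change of 0.22 (−0.04 to 0.48) and an interval from −2.60% to 39.4%.

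*Has2* (ENSMUSG00000022367, chromosome 15, 56665627 to 56694539, minus strand) encodes the main hyaluronan synthase of the embryonic heart, without which cushions do not form. It was at 93.2, 69.0 and 76.7 CPM in control pools and at 77.9, 71.8, 85.8 and 71.8 CPM in *Gata6STOP/+* pools. The control pools again held the highest and the lowest value. The log2 fold change was −0.04 (−0.27 to 0.18, limma adjusted *P* = 0.937), an interval from −16.9% to 13.2%. *Has3* averaged 1.29 CPM in control pools and 1.09 CPM in *Gata6STOP/+* pools, and *Has1* was not among the listed genes. Genes that make the precursor (*Ugdh*, *Ugp2*), cut hyaluronan (*Hyal1*, *Hyal2*, *Cemip*, *Cemip2*) or bind it (*Cd44*, *Hapln1*, *Hapln3*, *Vcan*) had log2 fold changes from −0.13 to 0.23, and none of these 10 was called.

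**Figure D2:**
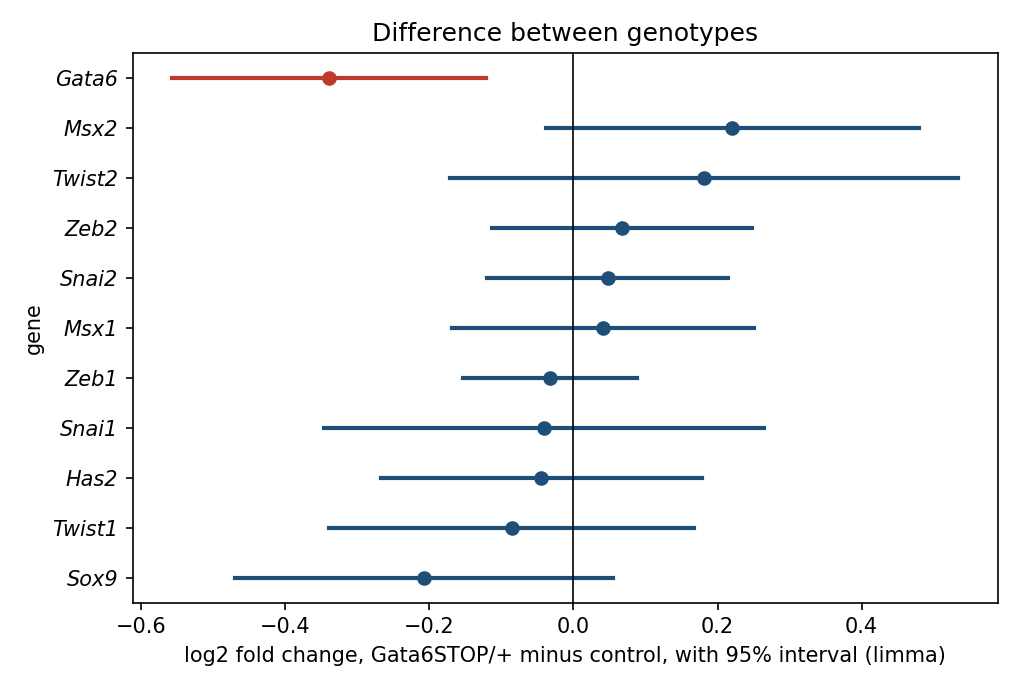
Log2 fold change (*Gata6STOP/+* minus control, on the log2(CPM + 0.5) scale) of each of the 10 genes with its 95% interval from limma. Each interval of the 10 genes includes 0, from the narrow one of *Zeb1* (−0.15 to 0.09) to the wide one of *Twist2* (−0.17 to 0.53). The interval of *Gata6* in the same fit, −0.56 to −0.12, does not include 0.

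The 10 genes differed in how they spread within a genotype. In control pools the coefficient of variation was 23.7% for *Snai1*, 20.5% for *Sox9*, 20.1% for *Twist1* and 15.5% for *Has2*, and it was 6.57%, 7.59%, 3.90% and 8.66% for these genes in *Gata6STOP/+* pools. Their control SD on the log2 scale was larger than that of 97.8%, 98.9%, 99.0% and 96.2% of the genes expressed at a like level, in that order. *Twist2* was the reverse, with 8.91% in control and 22.5% in *Gata6STOP/+* pools, where its SD exceeded that of 94.5% of like genes. For the genes other than *Snai1*, *Sox9*, *Twist1* and *Has2*, the control SD exceeded that of 27.8% (*Zeb1*) to 61.4% (*Zeb2*) of like genes. Whether the spread itself differed between the genotypes was not tested.

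Single pools stood out within this spread. Control replicate 3 was the highest of the 7 pools for 5 of the 10 genes, against 19.4% of all genes, and above the gene's own mean for 9 of 10. Control replicate 4 was the lowest for 4 of the 10, against 11.8% of all genes, with a median deviation of −0.15 on the log2 scale. In the same 3 control pools, *Vim*, an intermediate filament gene of mesenchyme, was at 1943, 1596 and 1780 CPM and *Vcan*, a hyaluronan-binding proteoglycan of the cushions, at 2063, 1831 and 2005 CPM, so that both were lowest in control replicate 4. *Cdh5*, the endothelial cadherin, was highest there, at 212 CPM against 162 and 149 CPM. Other cadherin genes of mesenchyme did not follow *Vim* and *Vcan*: *Cdh11* was at 234, 300.3 and 288 CPM, highest in control replicate 4, and *Cdh2* at 451, 449.8 and 457 CPM. These genes were picked after their values were seen. The part that differences in cell makeup between these pools play in the values of the 10 genes was not tested.

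**Figure D3:**
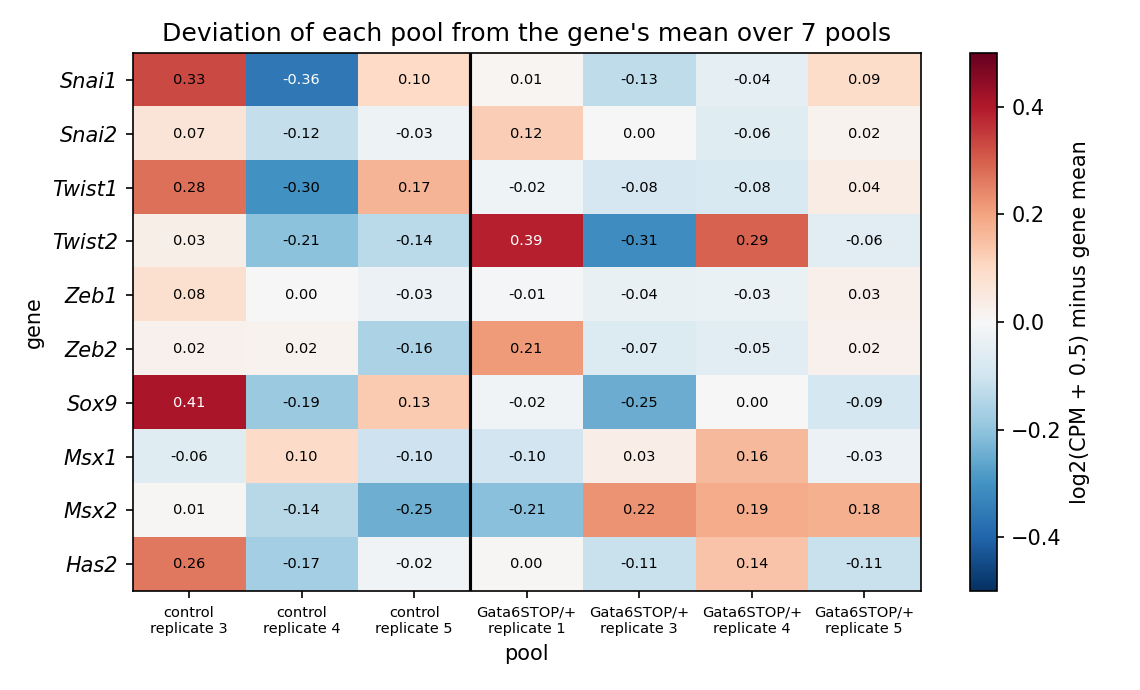
Deviation of each gene in each pool from its mean over the 7 pools, in log2(CPM + 0.5). *Snai1*, *Twist1*, *Sox9* and *Has2* were above their means in control replicate 3 (0.33, 0.28, 0.41 and 0.26) and below them in control replicate 4 (−0.36, −0.30, −0.19 and −0.17).

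With control replicate 4 left out, *Snai1*, *Twist1* and *Sox9* lay below both remaining control pools in all *Gata6STOP/+* pools, where 10.1% of all genes did so, and their log2 fold changes were −0.23, −0.26 and −0.36. With control replicate 3 left out, the log2 fold changes of *Snai1*, *Twist1* and *Sox9* were 0.11, 0.028 and −0.061, and the median of the 10 was 0.08. *Twist2* ranged from 0.078 without *Gata6STOP/+* replicate 1 to 0.31 without *Gata6STOP/+* replicate 3. With *Gata6STOP/+* replicate 1 left out, *Msx2* was above all control pools in the remaining *Gata6STOP/+* pools, as were 6.63% of all genes. With any other pool left out, all 10 genes overlapped between the genotypes. No gene of the 10 was called by limma with any pool left out, and the smallest adjusted *P* was 0.307, for *Twist1* without control replicate 4. The share of all genes called by limma was 0.0882% without control replicate 4, 0.00679% without *Gata6STOP/+* replicate 1, 0.0136% without *Gata6STOP/+* replicate 3 and 0% without any other pool.

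Levels of different genes were compared as CPM per kilobase of all annotated exons. In control pools *Twist1* was highest at 67.6 ± 13.6 (SD, n = 3), followed by *Sox9* at 28.4 ± 5.81, *Has2* at 18.8 ± 2.92, *Snai1* at 15.0 ± 3.56 and *Snai2* at 14.0 ± 0.914 CPM per kilobase. The ranges over all 7 pools did not overlap between *Twist1* and *Sox9*. *Sox9* exceeded *Has2*, and *Has2* exceeded *Snai1*, in 7 of 7 pools, although these ranges overlap, while *Snai1* exceeded *Snai2* in 4 of 7 and these neighbours could not be ordered. Below them were *Zeb1* at 8.43 ± 0.338, *Msx2* at 4.89 ± 0.441, *Msx1* at 4.74 ± 0.361, *Twist2* at 3.37 ± 0.300 and *Zeb2* at 3.02 ± 0.214 CPM per kilobase. *Zeb1* was apart from both of its neighbours, and each of the last 4 overlapped with the next. The Zeb genes have many annotated transcripts, and with the length of the longest coding transcript *Zeb1* was at 14.9 and *Zeb2* at 6.59 CPM per kilobase, which put *Zeb1* level with *Snai1* and *Snai2*, and *Twist2* last.

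**Figure D4:**
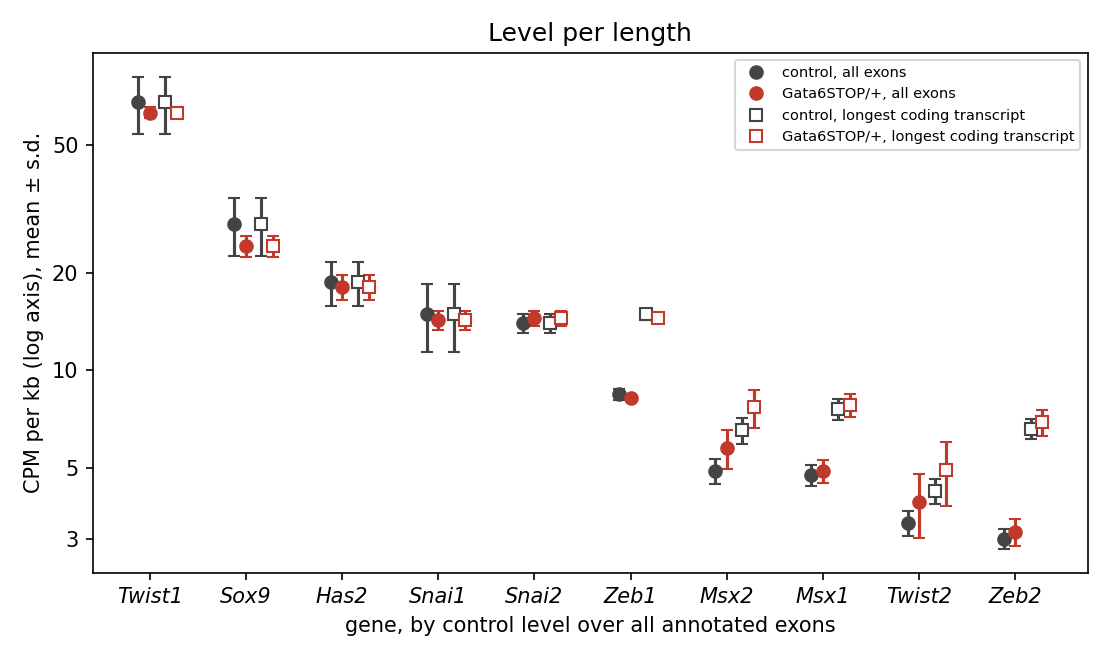
Level of each gene in CPM per kilobase on a log axis, for control and *Gata6STOP/+*, with lengths from all annotated exons and from the longest coding transcript. *Twist1* lies above the rest (67.6 CPM per kilobase in control), and *Zeb1* and *Zeb2* shift most between the lengths used.

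The balance within each paralog pair was compared as a log2 ratio in each pool. *Snai1* over *Snai2* was −0.24 ± 0.26 in control (SD, n = 3) and −0.33 ± 0.10 in *Gata6STOP/+* pools (SD, n = 4). *Twist1* over *Twist2* was 3.29 ± 0.22 and 3.02 ± 0.32, *Zeb1* over *Zeb2* 0.52 ± 0.07 and 0.42 ± 0.12, and *Msx1* over *Msx2* −0.12 ± 0.15 and −0.30 ± 0.15. All 4 ratios were lower on average in *Gata6STOP/+* pools, by differences of −0.09, −0.27, −0.10 and −0.18, but the pools overlapped for each pair and the differences were not tested.

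**Figure D5:**
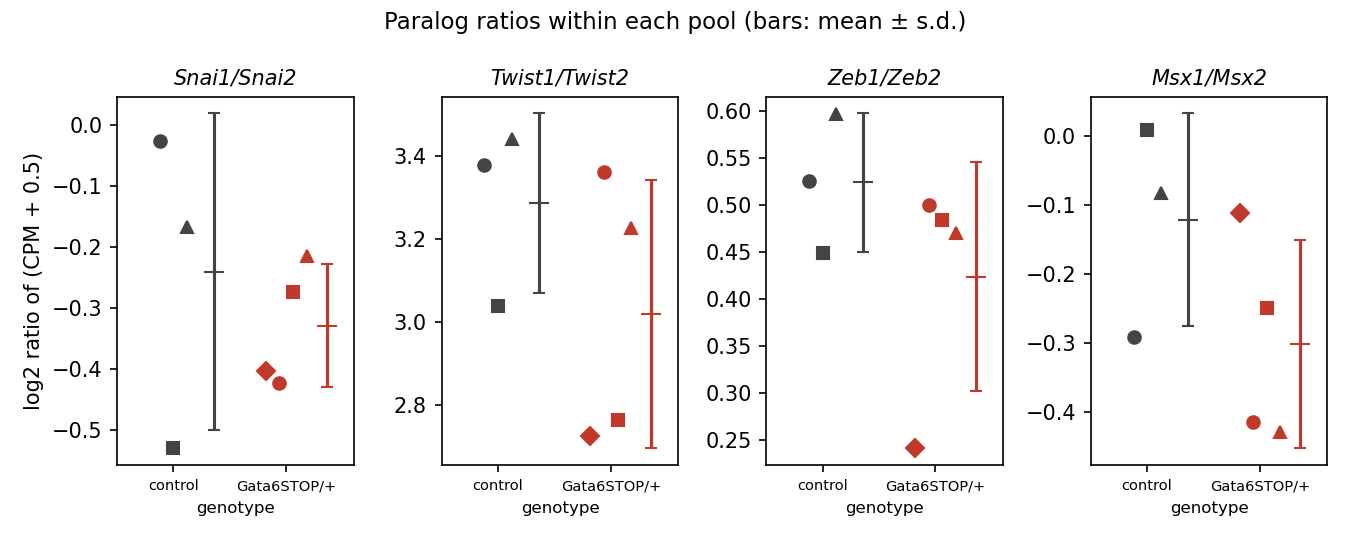
Log2 ratio of CPM within each paralog pair, by pool, for control and *Gata6STOP/+*. The pools of the genotypes overlap in all 4 pairs, and *Gata6STOP/+* replicate 1 has the lowest *Zeb1* to *Zeb2* ratio (0.24).

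Around these genes, 120 of 128 other genes of the transition were listed: 16 ligands, 16 receptors, 10 signal transducers, 36 nuclear factors, 30 hyaluronan and matrix genes and 12 junction and cytoskeleton targets. Limma called 0 of 120. At an unadjusted *P* under 0.05 there were 14 with a positive and 8 with a negative fold change, 18.3% against 8.06% of all genes (4.17% positive and 3.88% negative), and the pools of 11 did not overlap, 9.17% against 8.47%. Without control replicate 4 these were 8 positive and 11 negative, 15.8% against 8.82% of all genes. The lists were chosen with earlier results of these data known, so these shares are a description and not a test. The median log2 fold change was 0.02. The unadjusted count was 5 of 16 ligands, 5 of 16 receptors, 2 of 10 transducers, 6 of 36 nuclear factors, 3 of 30 matrix genes and 1 of 12 targets.

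Among the nuclear factors, *Id4*, which blocks E protein binding, was at 13.6, 14.5 and 14.3 CPM in control pools and at 21.1, 19.0, 20.7 and 18.3 CPM in *Gata6STOP/+* pools. Every *Gata6STOP/+* pool was above every control pool (log2 fold change 0.47, SE 0.084, limma adjusted *P* = 0.186), and the gene was called by edgeR's likelihood ratio test (adjusted *P* = 0.00398) and by DESeq2 (0.00570). *Hand1*, a basic helix-loop-helix factor, had a log2 fold change of 0.41, with adjusted *P* values of 0.246, 0.0239 and 0.0215 in the same tests, and *Hey2*, a Notch target, one of 0.20 (limma adjusted *P* = 0.513). The pools of both did not overlap either. The other Id genes, *Id1*, *Id2* and *Id3*, were not called.

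Of the ligands, *Wnt9b*, expressed in cushion endocardium, was at 9.07 ± 1.16 CPM in control (SD, n = 3) and 13.7 ± 2.17 CPM in *Gata6STOP/+* pools (SD, n = 4), without overlap (log2 fold change 0.56, limma adjusted *P* = 0.283). *Wnt4* had a log2 fold change of 0.32 (limma adjusted *P* = 0.505), which was 0.21 without control replicate 4 (0.609). *Bmp10* was at 6.14, 66.5 and 11.3 CPM in control pools and at 0.631, 5.69, 1.75 and 5.79 CPM in *Gata6STOP/+* pools, for a log2 fold change of −2.46 (limma adjusted *P* = 0.419, edgeR likelihood ratio adjusted *P* = 0.0317). Control replicate 4 was far above the rest, and without it the log2 fold change was −1.49 (limma adjusted *P* = 0.524). The TGFβ co-receptor gene *Tgfbr3* was likewise high in this pool, at 19.6, 53.2 and 19.5 CPM in control and 13.4, 14.4, 13.0 and 18.9 CPM in *Gata6STOP/+* pools (log2 fold change −0.87, limma adjusted *P* = 0.466), and without the pool its log2 fold change was −0.39 (limma adjusted *P* = 0.476).

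The hyaluronan receptor gene *Cd44* was at 89.3, 78.4 and 80.3 CPM in control pools and at 91.7, 95.8, 97.1 and 97.2 CPM in *Gata6STOP/+* pools (log2 fold change 0.21, limma adjusted *P* = 0.400), without overlap. *Hapln1*, which links hyaluronan to proteoglycans, had a log2 fold change of 0.23 (limma adjusted *P* = 0.522), which was 0.14 without control replicate 4 (0.647). The matrix gene *Fbln1*, whose pools did not overlap, had a log2 fold change of −0.23 (limma adjusted *P* = 0.342). *Postn*, a matrix gene of maturing cushions, and *Erbb3*, a neuregulin receptor gene of cushion mesenchyme and neural crest, had log2 fold changes of −0.47 and −0.39 (limma adjusted *P* = 0.433 and 0.419), with overlap. *Postn* was called by the edgeR likelihood ratio fit that blocked on replicate number (−0.59, adjusted *P* = 0.0104).

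For each of the 10 genes, the gene with the most similar profile over the 7 pools was sought among 11626 genes that averaged 5 CPM or more. These were *Fbf1* for *Snai1*, *Siah1a* for *Snai2*, *Rtkn* for *Twist1*, *Smad2* for *Twist2*, *Tm7sf3* for *Zeb1*, *Smad3* for *Zeb2*, *Rcn3* for *Sox9*, *Rnf6* for *Msx1*, *Alpk3* for *Msx2* and *Smad6* for *Has2*. Pearson's r ran from 0.973 (*Zeb2*) to 0.994 (*Sox9*), Spearman's rho from 0.821 to 1, and r without the 2 pools farthest from the median from 0.853 (*Snai1*) to 0.988 (*Snai2*). With 7 pools, between 16 and 107 genes had an r over 0.9 with each, so these names are a description.

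Reads of the 10 genes were checked for shared or overlapping sequence. Of all 60-base stretches in their annotated transcripts, 0 were shared between any of the 10, and with other genes they shared 0.459% in *Snai2*, 0.132% in *Zeb1* and 0.0780% in *Zeb2*. The listed genes that overlap a member on the opposite strand are *Gm29100*, *Gm10125* and *Zeb2os*. *Gm29100* at *Twist2* averaged 1.06 CPM in control pools and 1.35 CPM in *Gata6STOP/+* pools, *Gm10125* at *Zeb1* at 1.89 and 2.18 CPM, and *Zeb2os* at *Zeb2* at 3.20 and 3.18 CPM. The library kit was a directional one, but the strand setting of the counting is not given in the sources used here. Reads of these pairs may therefore not be fully separated. None of these antisense genes was called.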

How the data were processed

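RNA from pooled E11.5 outflow tracts of 3 control and 4 *Gata6STOP/+* pools was sequenced by the authors. Per the labels and the methods, the reads were trimmed with cutadapt, quantified per Ensembl gene of GRCm38 with RSEM, and filtered to genes reaching 1 CPM in 3 or more samples, which all 14732 genes do. The deposited values are CPM of the TMM-scaled library (edgeR). No per-sample column was left unused. Dividing by the value of 1 read gave whole reads (within 0.01) for 100% of values in every pool, with 17783655 to 34467710 reads on listed genes. In 3 pools the smallest value stood for 2, 4 or 6 reads, and the step was found by trial division up to 20.

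Genes were tested with limma 3.58.1 (trend, two-sided, no covariate, R 4.3.3) on log2(CPM + 0.5) over all 7 pools, with Benjamini-Hochberg adjustment over all genes and a threshold of 0.05. Fold changes are on this scale and understate those of low genes. The exact permutation test of *Gata6* used scipy 1.17.1. Intervals are 95% intervals from limma. The alternatives were 0.1 and 2 in place of 0.5, genes averaging 5 CPM or more, median-of-ratios scaling, a block for the replicate number, the tests of edgeR 4.0.16 and DESeq2 1.42.0 on the recovered reads, and leaving out each pool in turn. The limma, edgeR and DESeq2 fits were tested on simulated reads.

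The 10 genes, the pathway and marker lists and the tests were chosen with earlier results of these data known. Named in the text are the 10 genes, *Gata6*, the 12 pathway genes with the smallest *P* among those with an unadjusted *P* under 0.05 or without overlap, the most correlated gene for each of the 10, and listed genes that overlap one of them or start within 5 kb of its start. The paralogs, partners and targets given as families, and *Vim*, *Vcan*, *Cdh5*, *Cdh11* and *Cdh2* by pool, were added after the values were seen. Gene positions, exon lengths and transcripts are from the GENCODE annotation of GRCm38, in which all 10 genes were found. Same-numbered pools did not deviate together (r = −0.0084, −0.12 and −0.0016 for numbers 3, 4 and 5). The main test did not take the numbers as pairs, because the methods name no covariate. Such correlations cannot show whether the pools were collected in numbered sets, so fits with the number as a block are also given.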

Additional observations from a re-analysis of the deposited data

Results flagged for a closer look

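Of 40 values examined within the 4 *Gata6STOP/+* pools, 3 had a pool far from the others, where the gap to the nearest pool divided by the range exceeded Dixon's 95% critical value for 4 samples. Chance alone gives this in about 1 of 20 groups, and groups of 3 were not examined. *Gata6STOP/+* replicate 1 was the pool that stood apart in each. It had the lowest *Msx2*, 15.1 CPM against 19.8 to 20.5 CPM in the other pools (gap over range 0.876). It had the lowest log2 ratio of *Zeb1* to *Zeb2*, 0.24 against 0.47 to 0.50 (0.885). It had the highest *Gm29100*, the antisense gene at *Twist2*, 2.42 CPM (69 reads) against 0.936 to 1.02 CPM (0.945). The cause was not tested.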

How the results depend on the processing

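Over 17 alternatives, 0 of 170 settings of the 10 genes gave a call, and the smallest adjusted *P* was 0.307. The sign of the fold change differed in 4 settings: *Snai1* (0.11), *Twist1* (0.028) and *Has2* (0.074) turned positive on the log2 scale without control replicate 3, and *Msx1* negative (−0.0071) without *Gata6STOP/+* replicate 4. Leaving out each pool, these genes ranged from −0.23 to 0.11 (*Snai1*), −0.26 to 0.028 (*Twist1*), −0.14 to 0.074 (*Has2*) and −0.0071 to 0.10 (*Msx1*). The others kept their sign, *Sox9* from −0.36 to −0.061, *Twist2* from 0.078 to 0.31, *Msx2* from 0.16 to 0.32, *Zeb2* from 0.0059 to 0.10, *Snai2* from 0.00087 to 0.094 and *Zeb1* from −0.056 to −0.00058. The median log2 fold change of the 10 ranged from −0.0198 (without control replicate 4) to 0.0838 (without control replicate 3) when each pool was left out. The number of genes called among all 14732, 0 as tested, was 1 with 0.1 in place of 0.5, 105 with edgeR's likelihood ratio test and 88 with DESeq2. Leaving out each pool gave 0 to 13 calls, with 13 without control replicate 4, 1 without *Gata6STOP/+* replicate 1 and 2 without *Gata6STOP/+* replicate 3. Of the other pathway genes, 3 were called by edgeR's likelihood ratio test (*Bmp10*, *Id4* and *Hand1*) and 2 by DESeq2 (*Id4* and *Hand1*).

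With the replicate number as a block, 14 genes were called by limma, 13 by edgeR's quasi-likelihood test and 118 by its likelihood ratio test, the last with 1 pathway gene (*Postn*). In that likelihood ratio fit *Gata6* had a log2 fold change of −0.42 (adjusted *P* = 0.0164), its only setting past the threshold. *Gata6STOP/+* replicate 1 shares its number with no control pool and adds nothing to the blocked difference. The block changed no call among the 10 genes. In limma with the block *Msx2* was at 0.32 (adjusted *P* = 0.483) and *Sox9* at −0.23 (0.866). The causes were not tested.

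By the intervals from limma, differences of the size printed beside each gene remain possible, and for *Twist2* and *Msx2* these reach 44.8% and 39.4%. The number of pools, 3 and 4, limits the precision, and each of the 10 genes had at least 186 reads in each pool. With the longest coding transcript as length, 4 of the 10 genes kept their place in the order of levels.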
